A study of Mus musculus with 32 samples.

Results

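The respiratory chain genes of mouse parathyroid gland (PTG) cells comprised 98 of the 35458 genes to which the deposited transcripts could be assigned. They were chosen by symbol alone among protein-coding genes, as the 13 genes encoded by mitochondrial DNA (mt-Nd, mt-Co, mt-Atp and mt-Cytb) and 85 nuclear genes whose symbols begin with Nduf and a subunit letter, Sdha to Sdhd, Uqcr, Cox4 to Cox8 or Atp5. Of the nuclear genes, 79 had enough reads to be tested. Ndufa4l2, Cox4i2, Cox7b2, Cox8b and a second annotated entry for Atp5o had 0 reads in all 32 libraries, and Cox8c had reads in 1 library only.

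The respiratory chain is a series of protein complexes in the inner mitochondrial membrane: complex I (NADH dehydrogenase), complex II (succinate dehydrogenase), complex III (cytochrome bc1), complex IV (cytochrome c oxidase) and complex V (ATP synthase). Complexes I, III, IV and V are built from subunits of both genomes, whereas every subunit of complex II is nuclear. The mitochondrial genes are read from each strand as long transcripts that are then cut into single messages, so their levels can be set by transcription, by processing and by decay, while each nuclear subunit gene has its own promoter. Parathyroid chief cells secrete parathyroid hormone when blood calcium falls, and the oxyphil cells of the human gland are known for being packed with mitochondria.

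Each of the 32 libraries was made with the SMART-Seq HT kit from 10 to 20 tdTomato-positive cells picked with a micromanipulator, and 8 experiments of 4 libraries each made up 4 arms. Control cells were the native PTG cells of C57BL/6-Pthtm1(P2A-tdTomato)/+ mice, in which tdTomato is expressed with parathyroid hormone: experiment 1 was from males 8 weeks old and experiment 2 from females 11 weeks old. Mouse-host cells came from Gcm2-/- mice of BDF1B6 background, which lack a transcription factor needed to form the gland and had been complemented with Pth-tdTomato mouse embryonic stem cells (ESCs): experiments 1 to 3 were female and experiment 4 male, all 9 weeks old. Rat-host cells were the same kind of mouse ESC-derived cells, taken from a neonatal Gcm2-/- Wistar rat of unknown sex. Graft cells were ESC-derived cells of the mouse-host kind, with the same strain label, that had been grafted, and were labelled 12 weeks old and male. Cells of all 4 arms carried the tdTomato reporter. For the ESC-derived cells, the labels do not state whether the sex is that of the host or of the donor ESCs. Sex and age did not vary within an experiment. Host species cannot be told apart from age in the rat-host arm, nor grafting from age in the graft arm. The rat-host and graft arms held 1 experiment each. The labels call the libraries biological replicates without naming the animals. The main p-values between arms rest on the spread between experiments, and those of tests on single libraries on the spread between libraries. Either spread may in part be technical.

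The libraries of control experiment 1 held 29471254 to 32264864 estimated reads, and the other 28 libraries 9470744 to 15098391. Of 12 parathyroid markers, 11 had reads in every library, and only Pth2r was at 0 throughout. The summed parathyroid markers stood at 168900 ± 8772 CPM (reads scaled to library size; SD, n = 4 libraries) in the rat host, against 296300 to 320900 over the 4 mouse-host experiments, 321000 in the controls and 316200 ± 51290 in the graft. Fibroblast markers summed to 328 CPM in the rat host, 462 in the graft, 818 in the mouse host and 1328 in the controls, and single libraries reached 3104 (mouse host) and 4027 (control). Of the 8 fibroblast genes only Postn and Fbln1 had reads in every library, with medians of 395 and 280 CPM, while Col1a1, Col1a2, Lum and Pdgfra had medians of 0. Maxima of 1140 CPM for Col3a1 and 1251 CPM for Dcn, whose medians were 0.153 and 0.158, show that other genes of the list were high in single libraries. The muscle list summed to 3.95 CPM (rat host) to 45.2 CPM (mouse-host experiment 3) by experiment, with Myh1 at 0 in 3 libraries and Myh4 in 10, and Acta1, Myh6 and Myh7 at 0 in 32. Macrophage sums reached 68.3 CPM in 1 control library and 29.5 in 1 graft library and had a median of 0.042 CPM over all libraries, with Adgre1 at 0 in 32. In single libraries the endothelial sum was at most 3.59 CPM (Cdh5, Kdr and Flt1 at 0 throughout), the thyroid sum 4.48 CPM (Tshr, Pax8 and Foxe1 at 0), the brown fat sum 13.97 CPM (Ucp1 and Adipoq at 0) and the erythrocyte sum 12.3 CPM (Hbb-bt at 0). The part of these marker differences in the results below was not tested. In such pooled cells, fewer cells of a type and less RNA per cell cannot be told apart.

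Several mitochondrial genes cannot be counted independently of a neighbour or a copy, and the sequences that cause this are shown because the gene values rest on them. On the mouse mitochondrial DNA (chrM of GRCm38, plus strand), mt-Atp8 and mt-Atp6 share 43 bases and mt-Nd4l and mt-Nd4 share 7, printed here in capitals within the surrounding 5′ to 3′ sequence at chrM:7907-7989 and chrM:10147-10193.
mt-Atp8/mt-Atp6: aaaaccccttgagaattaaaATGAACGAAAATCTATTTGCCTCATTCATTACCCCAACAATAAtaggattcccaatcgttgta
mt-Nd4l/mt-Nd4: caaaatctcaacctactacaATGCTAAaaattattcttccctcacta
Reads inside a shared stretch belong to both genes, and mt-Nd6, the only one of the 13 on the minus strand (13552 to 14070), overlaps the end of mt-Nd5. Whether strand was used in the quantification is not given in the sources used here, so mt-Nd6 reads and reads from the opposite strand may not have been separated.

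A block of mitochondrial sequence copied into chromosome 1 adds a second ambiguity, since annotated pseudogenes there match mitochondrial genes almost letter for letter. Gm28438 matched mt-Nd3 at 99.7% over 345 bases and Gm29216 matched mt-Co1 at 99.8% over 483 bases, while Gm28437, Gm10925 and Gm28661 were identical to mt-Co3, mt-Atp6 and mt-Co2 over 783, 678 and 681 bases. The first difference in each of the former pairs is in capitals below, with positions counted from 1 at the annotated start of the mitochondrial gene: T3C for mt-Nd3 (chrM:9459-9475, plus strand) against Gm28438 (chr1:24613103-24613119, minus strand), and A1066T for mt-Co1 (chrM:6390-6407, plus strand) against Gm29216 (chr1:24616171-24616188, minus strand), all in GRCm38.
mt-Nd3: atTaacctgtacactgt
Gm28438: atCaacctgtacactgt
mt-Co1: ggaAttgttttatccaac
Gm29216: ggaTttgttttatccaac

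The deposited quantification assigned 32320 reads over all libraries to Gm28438 and 11797 to mt-Nd3, so that the pseudogene entry held 70.7% of the joint reads on average and between 23.1 and 92.1% in single libraries. By experiment its share was lowest in mouse-host experiment 1 (45.4%) and the rat host (61.5%) and lay between 70.8 and 82.8% in the other 6. For mt-Co1 the share assigned to Gm29216 was 18.4% on average, with 516263 against 2251594 reads, and ranged from 13.1 to 31.1%. The gene entry of mt-Nd3 thus held under 50% of the joint reads in 29 of 32 libraries, the exceptions being 1 rat-host library and 2 from mouse-host experiment 1. Over 9 pseudogenes of mitochondrial DNA, which include Gm13340 and Gm13341 on chromosome 2 with 97.6 and 95.9% identity, the reads numbered 2.82 to 13.03 per 100 reads on the 13 mitochondrial genes.

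**Figure D1:**
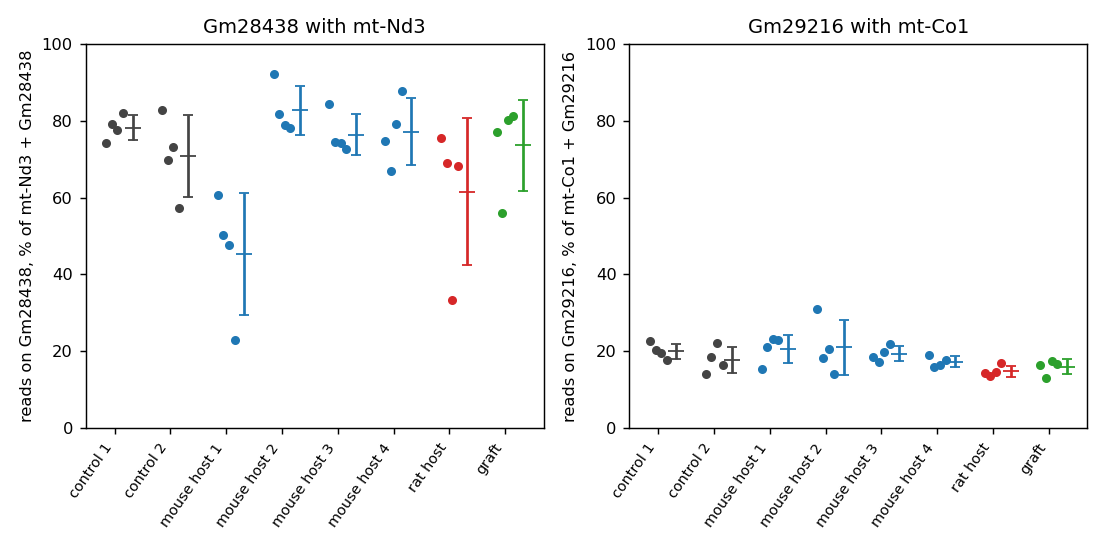
Share (%) of the joint reads of mt-Nd3 and Gm28438, and of mt-Co1 and Gm29216, that the deposited tables assign to the pseudogene, for each library (points) by experiment, with the mean and SD of 4 libraries (bars). The mt-Nd3 pair spans 23.1 to 92.1% and the mt-Co1 pair 13.1 to 31.1%.

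Per unit of transcript length, the messages of mitochondrial genes were the more abundant set. On the deposited TPM scale, which corrects for transcript length, the median level over the 13 mitochondrial genes was 2436 and over the 79 tested nuclear genes 557. The highest level was that of mt-Co3, a core subunit of complex IV, at 15730 TPM. The lowest of the mitochondrial gene entries was that of mt-Nd3, a membrane subunit of complex I, at 246 TPM. This leaves out the reads assigned to Gm28438: the joint mean of both entries was 89.3 CPM, against 24.8 for mt-Nd3 alone. Its place as the lowest may thus rest on the assignment of reads, and mt-Nd6 came next at 265.5 TPM. Among the nuclear genes, the highest mean TPM levels by complex were those of the small subunits Ndufa1 in complex I (2149 ± 345, SD over 8 experiments), Uqcr11 in III (2370), Cox8a in IV (2502) and Atp5e in V (2576), with Sdhb, the iron-sulfur subunit, at 402 in complex II. The lowest mean TPM levels were those of Ndufs1 (88.0 ± 9.37), the largest subunit of complex I, Sdhc (149), Uqcrc2 (168), Atp5s (64.5) and, in complex IV, Cox8c (0.0123), a form known from testis that was not tested, with Cox6b2 (14.3) as the lowest tested gene there. Genes with no read in any library were left out of these levels.

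Where a complex IV or V subunit has several forms, the widely expressed form carried nearly all of the message in most cases. Cox4i1, Cox7b, Cox8a and Ndufa4 had mean levels of 1799, 155, 2502 and 1254 TPM, and their counterparts Cox4i2, Cox7b2, Cox8b and Ndufa4l2 were without reads. Cox6b1, which caps the complex IV dimer, stood at 1442 TPM against 14.3 for the testis form Cox6b2. Cox7a2 stood at 547 TPM, Cox7a2l, which helps to join complexes III and IV, at 161 and the muscle form Cox7a1 at 18.3. An exception was Cox6a2, the form known from heart and skeletal muscle, which was present at 88.5 ± 32.4 TPM beside 1265 for Cox6a1, and had reads in all 32 libraries. Its mean was lowest in mouse-host experiment 3 (19.3 CPM), where the summed muscle markers were highest. Of that list, Acta1, Tnnt3 and Actc1 were at 0 in all 32 libraries. Myh1 was at 0 in only 3 and Myh4 in 10, with maxima of 16.1 and 50.1 CPM. The source of the Cox6a2 reads was not tested. The 3 genes that encode the same mature c-ring subunit of ATP synthase were all present, with Atp5g3 at 1583, Atp5g1 at 954 and Atp5g2 at 217 TPM.

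The mitochondrial messages varied far more between libraries and experiments than the nuclear ones. The summed CPM of the 13 mitochondrial genes (CPM here are scaled by the trimmed mean of M values, TMM) differed 3.34-fold between the highest and the lowest of the 32 libraries, and the nuclear sum 1.58-fold. The SD between the 8 experiment means was 0.47 on the log2 scale for the mitochondrial sum and 0.10 for the nuclear sum. For single genes, the SD between the experiment means of log2 CPM had a median of 0.78 over the mitochondrial genes and 0.20 over the nuclear genes, and within experiments the medians were 0.52 and 0.22. The mitochondrial genes differed among themselves, with SDs from 0.36 for mt-Co1 and mt-Co3 to 0.98 for mt-Nd3 and mt-Atp8.

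The mitochondrial sums in the 4 libraries were 33060, 26560, 29390 and 28530 CPM in control experiment 1 and 21730, 27580, 37010 and 30900 in control experiment 2. In mouse-host experiments 1 to 4 they were 27190, 14210, 13870 and 14430, then 15010, 21570, 23960 and 23470, then 26550, 25990, 19630 and 21740, and finally 44130, 30520, 27430 and 25220. The rat-host libraries had 15240, 13610, 13400 and 13210 CPM and the graft libraries 39380, 37350, 29980 and 35220. The rat-host values were close to each other and at the low end, level with 3 libraries of mouse-host experiment 1 and 1 of experiment 2, and the graft values were high but overlapped those of the controls and of mouse-host experiment 4.

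By arm, the mean mitochondrial sum was 29340 CPM in the controls, 23430 ± 6121 in the mouse host (SD, n = 4 experiments), 13870 ± 931 in the rat host (SD, n = 4 libraries) and 35480 ± 4043 in the graft. Mean nuclear sums were 24230, 24000 ± 1308, 22650 ± 353 and 27710 ± 1949 CPM in the same order. The ratio of mitochondrial to nuclear reads does not depend on library scaling, and its means were 1.16 ± 0.0804 for control experiment 1 and 1.26 ± 0.201 for experiment 2. Mouse-host experiments 1 to 4 had ratios of 0.701 ± 0.280, 0.964 ± 0.236, 0.964 ± 0.122 and 1.29 ± 0.136. It was 0.612 ± 0.0401 in the rat host and 1.29 ± 0.200 in the graft. The ratio of mouse-host experiment 4, labelled male, was thus level with the graft. Among the experiments labelled female, control experiment 2 lay above the means of all 3 mouse-host experiments.

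**Figure D2:**
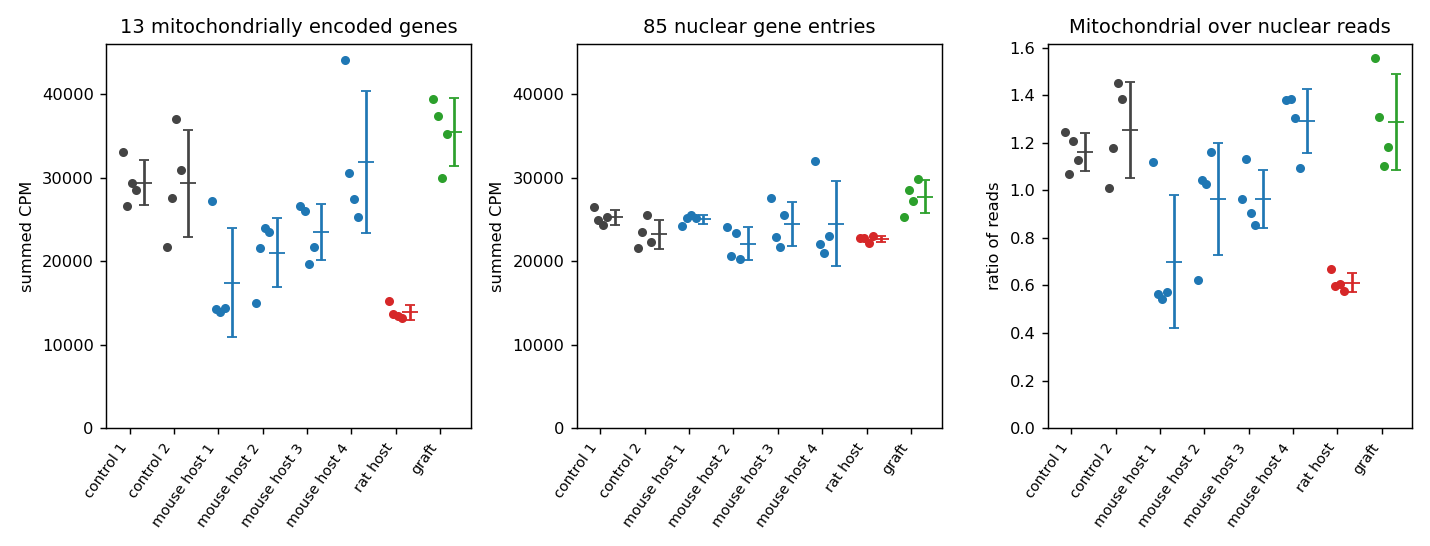
Summed CPM of the 13 mitochondrial genes, summed CPM of the nuclear members, and the ratio of their reads for each of the 32 libraries (points) by experiment, with mean and SD of 4 libraries (bars). The nuclear sum stays within 1.58-fold across libraries and the mitochondrial sum spans 3.34-fold, and is low in all rat-host libraries and in 4 of the mouse host (3 from experiment 1, 1 from experiment 2).

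The make-up of the mitochondrial reads also differed between experiments. The share of mt-Co1 in all mitochondrial reads was 15.9 ± 1.68% in control experiment 1 and 15.9 ± 1.01% in the graft, and 21.1 to 23.4% in the mouse-host experiments and 21.3 ± 1.41% in the rat host. Control experiment 2, at 20.1 ± 2.98%, was closer to the mouse host. For mt-Atp6, a subunit of the proton channel of ATP synthase, the order was the reverse, with 11.0% in both controls and 11.3% in the graft, 6.33, 7.09, 7.17 and 9.91% in mouse-host experiments 1 to 4, and 6.16% in the rat host. The shares of mt-Co3 ran from 27.3 to 34.2% over the experiments, highest in mouse-host experiment 1 and the rat host. By the mean of log2 CPM over the libraries of an experiment, 12 of the 13 genes were highest in the graft and 1 in mouse-host experiment 4, while 8 were lowest in the rat host, 4 in mouse-host experiment 1 and 1 in mouse-host experiment 2.

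**Figure D3:**
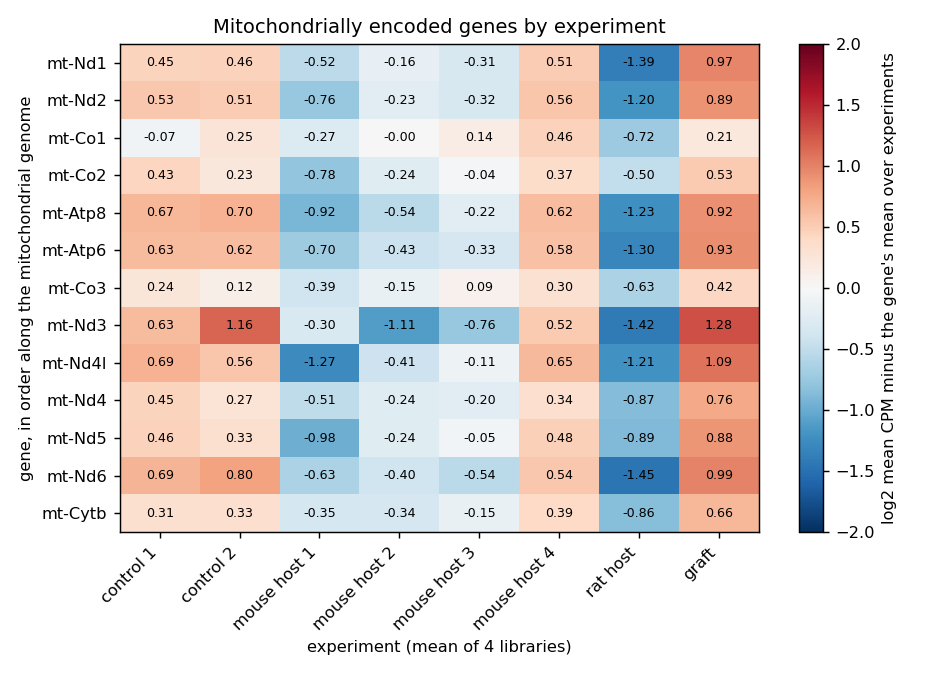
Level of each of the 13 mitochondrial genes by experiment, in their order along the mitochondrial DNA, as the log2 of the mean CPM of 4 libraries minus the gene's mean of these over the 8 experiments. Values run from -1.45 (mt-Nd6 in the rat host) to 1.28 (mt-Nd3 in the graft), and the graft is the highest experiment for 12 genes.

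The first comparison asked if the cells grown from ESCs in mouse hosts differed from native ones. Fitted log2 fold changes were below 0 for all 13 mitochondrial genes, with a median of -0.55, although that of mt-Co1 was only -0.01 and its sign turned with the tool, whereas the nuclear median was -0.08, with 55 of 79 below 0, and the median of all 15698 tested genes was 0.00. No respiratory chain gene passed a Benjamini-Hochberg (BH) adjusted p of 0.05 in edgeR's quasi-likelihood test on experiment sums, in which 0% of all tested genes passed. With DESeq2 0 members passed among 135 genes called, and with limma voom 4 passed (Cox7c, Cox6a2 and Atp5g2 lower, and 1 higher) among 42. At an unadjusted p below 0.05 there were 3 of 13 mitochondrial genes, all lower, and 6 of 79 nuclear genes, 5 lower and 1 higher, beside 4.40% of all tested genes (2.27% higher and 2.13% lower). No member, and 0.00637% of all tested genes, had all mouse-host libraries on one side of all control libraries. All 14 tested nuclear complex IV genes had log2 fold changes below 0, with a median of -0.19. The medians were -0.08 for complex I, 0.09 for II, 0.04 for III and -0.05 for V. The 2 control experiments differed by as much: 12 of 14 complex IV genes were lower in experiment 2, with a median of -0.21. On the log2(TPM + 1) scale the nuclear median of the mouse host against control was 0.02, with 36 of 79 below 0.

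The mitochondrial genes with an unadjusted p below 0.05 were mt-Nd3, mt-Nd6 and mt-Atp6. For mt-Atp6, the control libraries had 4517, 2570, 3174 and 2856 CPM in experiment 1 and 1932, 2760, 3953 and 4400 in experiment 2. The mouse-host libraries had 3344, 617, 448 and 785, then 483, 1738, 2101 and 1948, then 1861, 1916, 1521 and 1422, and then 4297, 3394, 2832 and 2137 CPM. The arms overlapped: all 4 libraries of mouse-host experiment 4, the last 2 of experiment 2 and the first of experiment 1 lay within the control range, and the other 9 mouse-host libraries lay below it. The log2 fold change of mt-Atp6 was -0.79 (edgeR, unadjusted p = 0.0407, BH-adjusted p = 0.892).

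mt-Nd6, the complex I subunit encoded on the opposite strand, had 132, 65.0, 69.0 and 70.2 CPM in control experiment 1 and 34.5, 60.7, 114 and 155 in control experiment 2. Its mouse-host values were 99.9, 12.8, 7.32 and 14.9, then 13.8, 42.5, 52.1 and 50.2, then 43.6, 35.0, 29.6 and 35.3, and then 114, 82.7, 55.4 and 52.8 CPM. The fold change was -0.95 on the log2 scale (edgeR, unadjusted p = 0.0248). The ranges of the arms overlapped, and the high values of the mouse host were those of experiment 4 and of the first library of experiment 1. For mt-Nd3 the arm means were 37.9 ± 9.70 CPM in the controls (SD, n = 2 experiments) and 16.5 ± 8.66 in the mouse host (n = 4), a log2 fold change of -1.23 that was -1.16 when the reads of Gm28438 were added to the gene.

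mt-Co1, the catalytic subunit of complex IV, differed from the other 12. Control experiments 1 and 2 had 4428 to 4946 CPM and 5020 to 6747 CPM, and the mouse-host experiments 3327 to 5931, 3414 to 5633, 4516 to 6346 and 5651 to 9044. The arm means of 5207 ± 816 and 5230 ± 1104 CPM gave a log2 fold change of -0.01 (edgeR, unadjusted p = 0.960). mt-Cytb, the subunit of complex III made in mitochondria, had means of 4515 ± 42.2 and 3415 ± 901 CPM and a log2 fold change of -0.42 (unadjusted p = 0.0774). The median log2 fold change was -0.21 over the 3 mt-Co genes, -0.65 over the 7 complex I genes and -0.82 over the ATP synthase pair.

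The mitochondrial difference varied with the experiments that were set against each other. Among the libraries labelled female, control experiment 2 (mitochondrial sum 29300 ± 6383 CPM) stood against mouse-host means of 17430 ± 6515, 21000 ± 4125 and 23480 ± 3346. There the median mitochondrial log2 fold change was -0.79 and the nuclear one -0.02. In that edgeR fit of single libraries 0 members passed an adjusted p of 0.05, as did 2 of all 12238 genes tested. Among those labelled male, the mean of control experiment 1 (29390 ± 2721 CPM) stood below that of mouse-host experiment 4 (31820 ± 8486 CPM). The latter held 1 library at 44130 CPM, and its others, at 25220 to 30520, overlapped the control range of 26560 to 33060. With 1 experiment labelled male in each arm, sex and experiment cannot be told apart, and the label may be that of the host or of the donor ESCs. Leaving out mouse-host experiment 4 gave a mitochondrial median of -0.81, and leaving out mouse-host experiment 1 gave -0.41. Whichever single library or experiment was left out, 12 to 13 of the mitochondrial genes stayed below 0.

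Of the nuclear genes with at least 5 CPM, Cox7c, a small complex IV subunit, had the smallest unadjusted p in the same comparison. The control libraries had 261, 179, 191 and 144 CPM and then 79.9, 143, 182 and 156, and the mouse-host libraries ran from 60.4 to 223 CPM, so the arms overlapped. Its log2 fold change was -0.69 (SE 0.23, unadjusted p = 0.0175, BH-adjusted p = 0.892 with edgeR). Cox6a2, the muscle form, had 41.6 to 68.9 and 32.4 to 59.1 CPM in the 2 control experiments and 12.7 to 58.1 CPM in the mouse host, with a log2 fold change of -0.81 (SE 0.32, unadjusted p = 0.0345). For the ATP synthase genes Atp5g2 (c-ring) and Atp5k (subunit e) the log2 fold changes were -0.65 and -0.52, and for Cox7a2 -0.30. Ndufv1, the flavoprotein of complex I that binds NADH, was the gene with the higher mean, at 365 against 287 CPM (log2 fold change 0.36, unadjusted p = 0.0395).

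Atp5g2 also separated the controls from each other, so its arm difference depended on which control was used. Its values were 160, 152, 143 and 152 CPM in control experiment 1 and 88.8, 88.6, 100 and 92.6 in control experiment 2, ranges that did not overlap. The mouse-host libraries ran from 41.9 to 133 CPM. Without control experiment 1, the log2 fold change of the mouse host against control was -0.25. In the test between the 2 control experiments on single libraries, Atp5g2 had a log2 fold change of -0.70 (edgeR, SE 0.14, unadjusted p = 0.000391, BH-adjusted p = 0.289).

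In that within-control comparison 0 members passed an adjusted p of 0.05 with edgeR, beside 0.0173% of all tested genes, and 2 of the 111 genes called by DESeq2 were members (Uqcrfs1 and Atp5g2). At an unadjusted p below 0.05 there were 1 of 13 mitochondrial genes and 11 of 79 nuclear genes, all of the latter lower in experiment 2, beside 5.39% of all 11544 genes tested. The mitochondrial median was 0.01, with 6 of 13 below 0, and the nuclear median -0.16, with 63 of 79 below 0, against a median of -0.01 over all genes. Uqcrfs1, the Rieske iron-sulfur protein of complex III, had a log2 fold change of -0.42 (BH-adjusted p = 0.531) and Ndufs4, a peripheral complex I subunit, one of -0.59 (adjusted p = 0.673). Next in order came Uqcrb (-0.46), Atp5j (-0.35) and Atp5c1 (-0.32), the gamma subunit of the ATP synthase rotor. The 2 control experiments, which differed in sex, age and depth, were thus alike in the mitochondrial median and differed slightly in the nuclear one.

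The spread within the mouse-host arm was tested across its 4 experiments, and here 2 mitochondrial genes differed. mt-Nd5 and mt-Co3 passed an adjusted p of 0.05 in edgeR's test on 16 libraries, and 0 of 79 nuclear genes did, beside 1.35% of all 12195 genes tested. For mt-Nd5, a proton-pumping subunit of complex I, the libraries had 614, 305, 344 and 275 CPM in experiment 1, 489, 725, 690 and 667 in experiment 2, 829, 810, 546 and 742 in experiment 3 and 1471, 1055, 878 and 830 in experiment 4. The highest and lowest experiment means, 1058 ± 292 and 384 ± 156 CPM (SD, n = 4 libraries), were 1.47 apart on the log2 scale (BH-adjusted p = 0.0189). All libraries of experiment 4 lay above all of experiment 1.

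mt-Co3 had 5986, 5307, 5683 and 5287 CPM in mouse-host experiment 1, 5971, 6682, 6993 and 6670 in experiment 2, 8834, 8523, 6372 and 7351 in experiment 3 and 12640, 8036, 7620 and 7800 in experiment 4. Its experiment means spanned 0.71 on the log2 scale (edgeR, BH-adjusted p = 0.0466), and the adjusted p was 0.0554 when the reads of the identical pseudogene Gm28437 were added, 0.0583 with other size factors (RLE) and 0.0718 with the replicate number as a block. These 2 calls rested on single libraries, as seen when 1 library at a time was left out. There were 0 calls when any one of replicates 2, 3 or 4 of experiment 1 was left out, and 11 without its replicate 1. There were 4 without replicate 1 of experiment 4, 2 without replicate 1 of experiment 2 and 1 in each of the other 10 cases. Of all tested genes, 78 to 202 were called in these cases. The nuclear gene with the smallest adjusted p was Atp5o, which encodes the oligomycin sensitivity-conferring subunit of the ATP synthase stalk (0.0694, or 0.0498 with RLE size factors). Its libraries had 363, 352, 413 and 466 CPM in experiment 1 and 229 to 333 CPM in the other 3 experiments, without overlap, and 385 to 437 CPM in the rat host. For Ndufs8, Sdhb, Uqcrc1, Ndufb8 and Ndufs7 the experiment means spanned 0.52, 0.56, 0.47, 0.48 and 0.46 on the log2 scale, with adjusted p values from 0.120 to 0.275.

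The rat host was set against the mouse host to compare the same kind of cell across host species, with age differing as well. All 13 mitochondrial genes had lower means in the rat host, with a median log2 fold change of -1.01, and 59 of 79 nuclear genes did, with a median of -0.11, against -0.03 over all tested genes. With edgeR 0 members passed an adjusted p of 0.05, beside 0.643% of all tested genes, while 4 of the 870 genes called by DESeq2 were members (mt-Nd1, mt-Co1 and Sdha lower, Sdhd higher). At an unadjusted p below 0.05 there were 6 of 13 mitochondrial genes, all lower, and 6 of 79 nuclear genes, 5 lower and 1 higher, beside 11.6% of all tested genes (6.29% higher and 5.28% lower). The nuclear share of 7.59% was below that background. Of the 36 tested nuclear complex I genes 33 had values below 0 (median -0.17), whereas complex V was split 8 to 9 (median 0.00).

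The mt-Co1 libraries of the rat host had 3168, 2754, 3130 and 2744 CPM, all below the lowest of the 16 mouse-host libraries, 3327. Its log2 fold change was -0.77 (SE 0.27, edgeR, unadjusted p = 0.0205). mt-Co3 had 5040, 4554, 4457 and 4893 CPM in the rat host, again below the lowest mouse-host library at 5287, with a log2 fold change of -0.56 (unadjusted p = 0.0466). These were the 2 mitochondrial genes without overlap, beside 3.02% of all tested genes, and in both the distance to the nearest mouse-host library was small. The mt-Cytb values of 2201, 1987, 2001 and 1779 CPM overlapped those of mouse-host experiment 1 (2069 to 4870), and the mt-Atp6 values of 1074, 882, 731 and 747 CPM lay inside its range of 448 to 3344. For mt-Nd6 the rat host had 23.3, 19.4, 16.7 and 16.9 CPM and a log2 fold change of -1.21 (unadjusted p = 0.0423). For mt-Nd3 the mean was 7.50 ± 3.23 CPM, with a log2 fold change of -1.07, or -1.57 with the reads of Gm28438 added.

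The nuclear direction in the rat host depended on how the libraries were scaled. TMM factors were 1.16 to 1.18 in the rat-host libraries and 0.884 to 1.07 in the mouse-host libraries. Without TMM the log2 difference of the nuclear sum was 0.17 in place of -0.07, and nuclear members made up 2.65% of reads in the rat host and 2.36% in the mouse host. In deposited TPM the nuclear sum was 64870 ± 1204 in the rat host and 54310 ± 2078 in the mouse host. On the log2(TPM + 1) scale the nuclear median was 0.24 where the median of all tested genes was 0.20, so the nuclear genes stayed near the bulk of genes under either scaling. The mitochondrial median was -0.52 on that scale and 12 of 13 genes remained below 0. The summed parathyroid markers were lower in the rat host than in every mouse-host experiment, as given above, and their part in these values was not tested.

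Complex II held the nuclear members with the smallest p values in the rat host, and they pointed in opposite directions. Sdha, the flavoprotein that oxidizes succinate, had 550, 472, 493 and 488 CPM in the rat-host libraries, all below the range of 682 to 1016 CPM of the mouse host. Its log2 fold change was -0.66 (SE 0.17, edgeR, BH-adjusted p = 0.158). Sdhd, one of the membrane anchors of the same complex, had 410, 427, 397 and 414 CPM in the rat host, above 15 of the 16 mouse-host libraries (188 to 302) and overlapping only the remaining one, at 412. Its log2 fold change was 0.76 (SE 0.19, BH-adjusted p = 0.143), and on the log2(TPM + 1) scale the adjusted p of limma was 0.0229. The other nuclear genes with small p values were all lower: Ndufa12 (-0.51), Ndufb10 (-0.55), Ndufb9 (-0.42) and Uqcrh (-0.41), with BH-adjusted p values from 0.315 to 0.414. Ndufb9 (307 to 319 CPM against 347 to 618) and Ndufb10 (123 to 156 against 160 to 299), both membrane-arm subunits of complex I, lay below every mouse-host library, as 3 of 79 nuclear genes (3.8%) did with Sdha, a share near the 3.02% of all tested genes.

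The graft was set against the mouse host to compare grafted with ungrafted cells, and it shares the mouse-host libraries with the 2 comparisons above. It was labelled male and 12 weeks old, against 9 weeks for the mouse host, so grafting and age cannot be told apart. Only experiment 4 of the mouse host was labelled male. Its ratio of mitochondrial to nuclear reads was level with the graft, as given above. All 13 mitochondrial genes had higher means in the graft (median log2 fold change 1.04), and 66 of 79 nuclear genes did (median 0.29), against a median of -0.09 over all tested genes. No member passed an adjusted p of 0.05 with edgeR, beside 0.115% of all tested genes, and 6 of the 1001 genes called by DESeq2 were members (mt-Nd1, mt-Nd4, Cox5a, Cox7c, Cox7a2 and Ndufa4, all higher). At an unadjusted p below 0.05 there were 10 of 13 mitochondrial genes, all higher, and 18 of 79 nuclear genes, 17 higher and 1 lower, beside 12.4% of all tested genes, of which 4.51% were higher and 7.85% lower. The 10 genes were all 7 mitochondrial subunits of complex I, both of ATP synthase and mt-Cytb, and the 3 mt-Co genes were the ones left out.

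For mt-Cytb the graft libraries had 6068, 6191, 4736 and 5886 CPM, and the mouse-host libraries 2069 to 6746, of which 1 (6746, experiment 4) lay above the graft range and 2 (4748 and 4870) within it. The log2 fold change was 0.77 (edgeR, unadjusted p = 0.0172). For mt-Nd1, a core subunit of complex I, it was 1.09 (unadjusted p = 0.0100, BH-adjusted p = 0.243), and for mt-Atp6, with 4754, 4815, 3301 and 3279 CPM, 1.12 (unadjusted p = 0.0230). mt-Nd6 had 106, 123, 92.5 and 94.9 CPM in the graft and a log2 fold change of 1.22 (unadjusted p = 0.0207). mt-Nd3 had 43.0, 104, 25.6 and 22.5 CPM, so the library with the highest value carried much of its log2 fold change of 1.68, which was 0.92 without it. mt-Co1, with 6375, 5472, 5120 and 5570 CPM, had a log2 fold change of 0.13 (unadjusted p = 0.620) and changed sign on the TPM scale. No mitochondrial gene was free of overlap with the mouse host.

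Among the nuclear genes, Cox5a and Ndufs5 lay above and Sdha below every mouse-host library, 3 of 79 beside 0.745% of all tested genes. Cox5a, a nuclear subunit on the matrix side of complex IV, had 340, 332, 319 and 364 CPM in the graft and 165 to 302 CPM in the mouse host. Its log2 fold change was 0.60 (SE 0.17, edgeR, BH-adjusted p = 0.219). Ndufs5, an accessory subunit of complex I, had 192, 224, 199 and 226 CPM in the graft against 84.5 to 181 (log2 fold change 0.58, adjusted p = 0.278). Cox7c, with 170, 265, 181 and 223 CPM in the graft, had the smallest p of the nuclear genes (log2 fold change 1.03, SE 0.29, adjusted p = 0.216) but overlapped the mouse host at its upper end. Cox7a2 (0.61), Atp5f1 (0.63) and Ndufa4 (0.59) had adjusted p values from 0.218 to 0.245. Sdha was again low, at 413, 603, 638 and 657 CPM, with a log2 fold change of -0.50 (adjusted p = 0.290); the control values of 561 to 901 CPM overlapped both the graft and the mouse host.

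**Figure D4:**
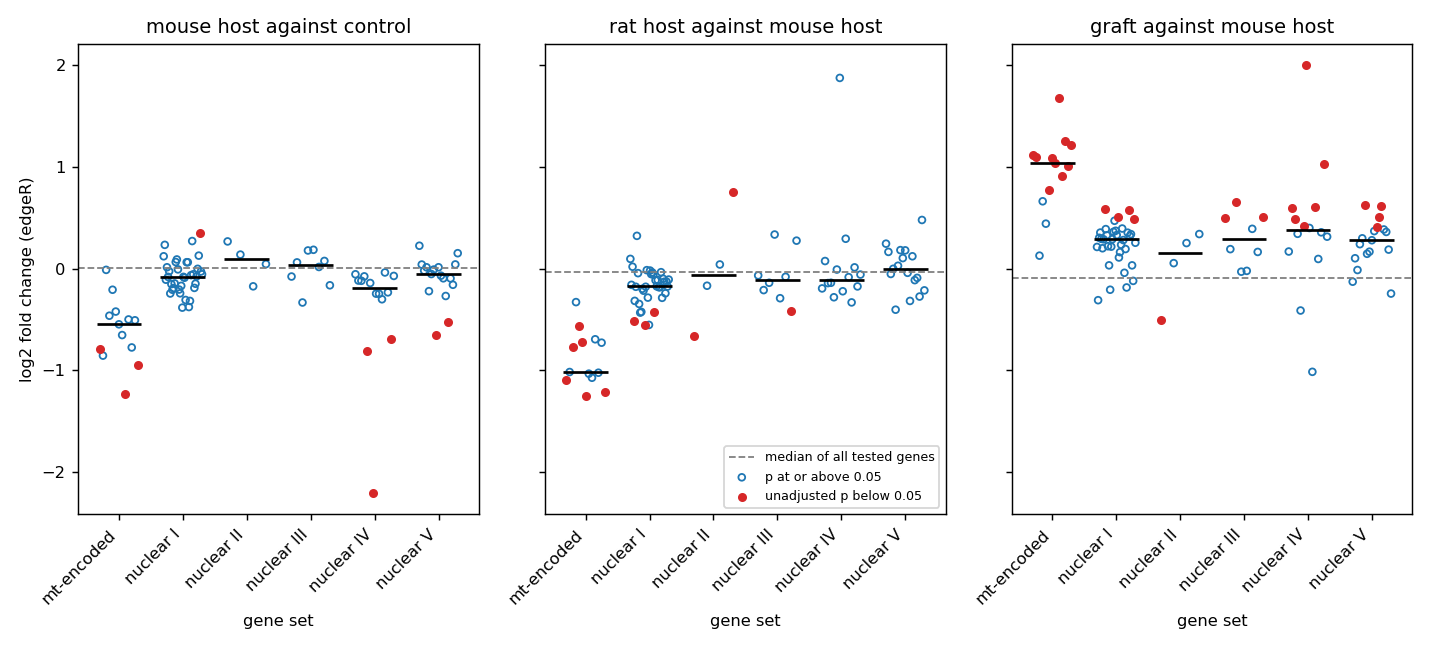
Log2 fold change (y axis) of each tested member, with the mitochondrial genes as 1 set and the nuclear genes by complex, in the mouse host against control, the rat host against the mouse host and the graft against the mouse host (filled red: unadjusted p below 0.05; open blue: the rest; black line: median of the set; dashed line: median of all tested genes). The mitochondrial medians are -0.55, -1.01 and 1.04, and the medians of the 5 nuclear sets lie between -0.19 and 0.38.

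The tissue forms followed their common counterparts only in part. Log2 fold changes of Cox6a2 were -0.81, -0.28 and -0.41 in the 3 comparisons in the order above, and those of Cox6a1 -0.07, -0.14 and 0.34. Cox7a1 had -0.25, 0.30 and -1.01 and Cox7a2 -0.30, -0.08 and 0.61, with Cox7a1 at 0 in 4 libraries. Cox6b2 had the largest nuclear values, -2.20, 1.88 and 2.00, at a mean of 3.20 CPM and with 0 reads in 5 libraries (edgeR, unadjusted p = 0.0135 in the first comparison and 0.0442 in the graft), while Cox6b1 had -0.14, -0.01 and 0.42. Cox4i1 (-0.05, -0.19 and 0.17), Cox8a (-0.07, -0.06 and 0.32) and Cox7b (-0.23, 0.01 and 0.36) stayed closer to 0. The c-ring genes Atp5g1 (-0.01, 0.18 and 0.15) and Atp5g3 (0.02, 0.18 and 0.28) did not share the mouse-host value of Atp5g2. With edgeR none of these genes was called in the 3 comparisons, while voom called Cox6a2 and Atp5g2 in the first, and DESeq2 and voom called Cox7a2 in the graft. Their differences from one another were not tested.

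**Figure D5:**
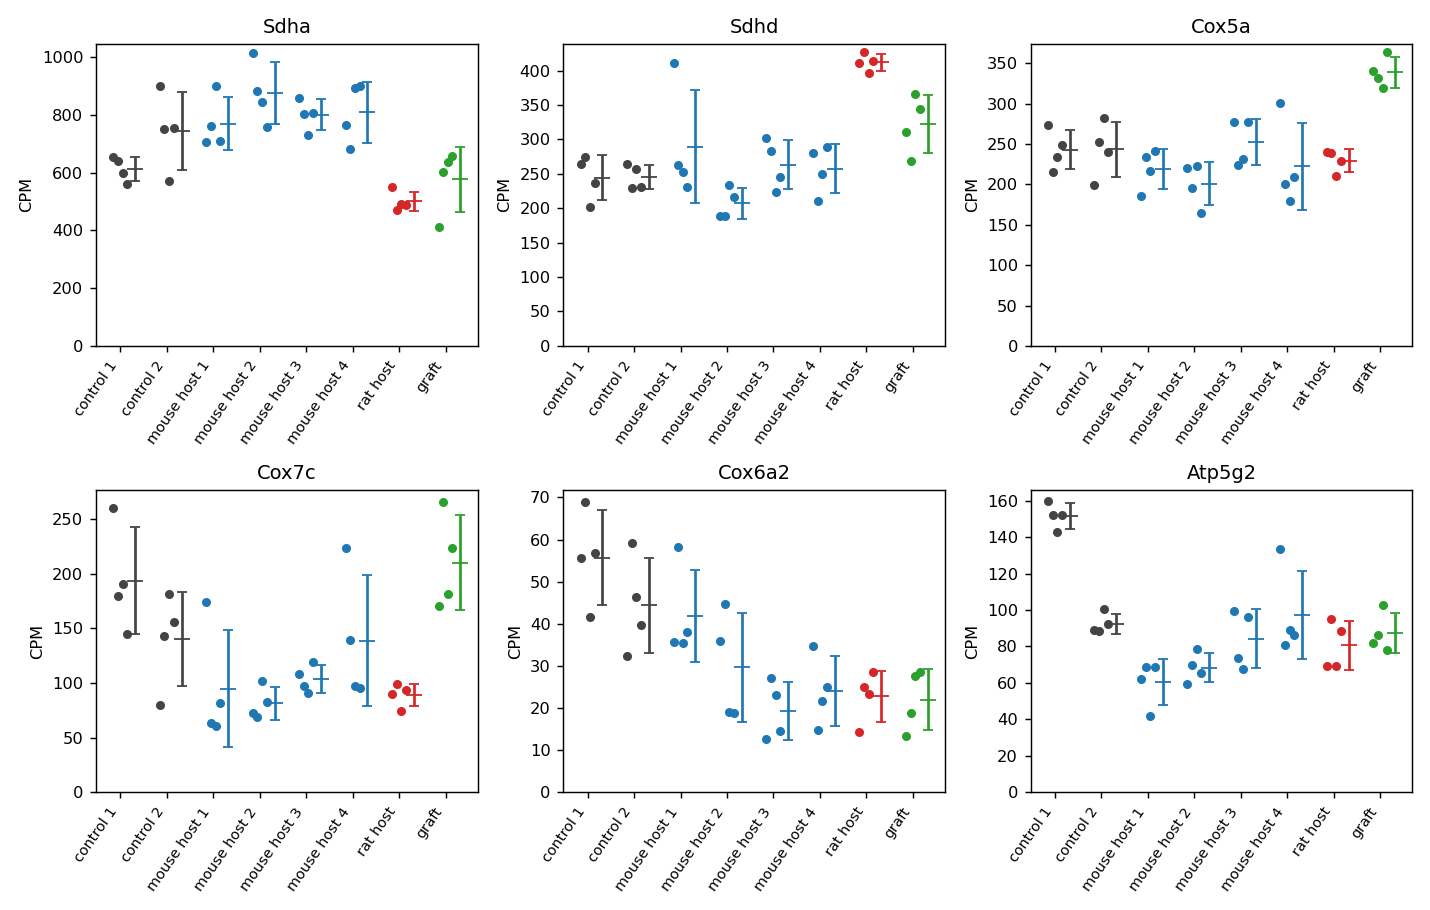
CPM of Sdha, Sdhd, Cox5a, Cox7c, Cox6a2 and Atp5g2 in each of the 32 libraries (points) by experiment, with mean and SD of 4 libraries (bars; black control, blue mouse host, red rat host, green graft). The mean of Sdha is lowest in the rat host (libraries 472 to 550, though 1 graft library has 413), Sdhd is high there (397 to 427), Cox5a is highest in the graft (319 to 364), and Atp5g2 separates the 2 control experiments.

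The nuclear genes are known to share binding motifs of the factors NRF1, GABPA (ETS family) and YY1 in their promoters, and these letters were counted in RefSeq windows of 250 bases before to 50 after the start (GRCm38.p6), which were given for 68 of 84 nuclear symbols, 66 of them tested genes. The NRF1 core motif, whose matches are seen in capitals below, was found on either strand in 25.8% of the 66 promoters and in 7.17% of 17491 protein-coding genes, the ETS core CCGGAAG in 24.2 and 12.9%, and the YY1 core motif in 7.58 and 1.41%. One or more of the 3 occurred in 48.5 and 19.5%. The 66 genes had passed the read filter, whereas the 17491 were not limited to expressed genes, and the difference in shares was not tested. The 200 bases before the start are printed for Sdha and Sdhd, whose rat-host values went opposite ways, and for Ndufs5 and Cox5a, which lay above every mouse-host library in the graft. Matches are in capitals, and the positions are chr13:74350241-74350440 (minus strand) for Sdha, chr9:50603850-50604049 (minus) for Sdhd, chr4:123718187-123718386 (minus) for Ndufs5 and chr9:57521032-57521231 (plus) for Cox5a.
Sdha: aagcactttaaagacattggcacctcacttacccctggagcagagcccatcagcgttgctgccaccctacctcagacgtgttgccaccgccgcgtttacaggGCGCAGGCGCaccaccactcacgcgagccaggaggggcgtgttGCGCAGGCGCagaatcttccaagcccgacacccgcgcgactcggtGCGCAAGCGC
Sdhd: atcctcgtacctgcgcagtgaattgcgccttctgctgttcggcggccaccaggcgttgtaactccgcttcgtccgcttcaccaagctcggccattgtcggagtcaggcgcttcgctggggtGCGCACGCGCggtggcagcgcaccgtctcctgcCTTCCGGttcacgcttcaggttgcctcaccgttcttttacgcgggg
Ndufs5: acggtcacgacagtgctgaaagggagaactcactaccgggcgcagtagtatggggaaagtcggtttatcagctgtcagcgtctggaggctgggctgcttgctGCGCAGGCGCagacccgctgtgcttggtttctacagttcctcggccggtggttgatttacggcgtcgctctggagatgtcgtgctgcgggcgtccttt
Cox5a: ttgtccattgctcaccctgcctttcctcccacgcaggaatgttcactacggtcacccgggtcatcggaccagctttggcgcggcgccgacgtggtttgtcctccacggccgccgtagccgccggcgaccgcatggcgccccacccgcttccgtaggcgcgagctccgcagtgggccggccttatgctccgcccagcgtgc
Sdha held 3 NRF1 matches, Sdhd 1 NRF1 and 1 ETS match, Ndufs5 1 NRF1 match and Cox5a none of these letters. A match describes the sequence only, and binding was not measured.

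The genes that transcribe, process and assemble the chain were examined as 8 lists, in which 0 genes passed an adjusted p of 0.05 with edgeR in the mouse host against control and in the rat host against the mouse host, and 1 passed in the graft. Fastkd5, which takes part in cutting mitochondrial transcripts that lack a flanking transfer RNA, was listed at 0 in all 4 graft libraries and had 3.38 to 34.4 CPM in the 16 mouse-host libraries (BH-adjusted p = 0.0195). The median log2 fold changes of 19 genes of mitochondrial transcription and DNA maintenance were 0.04, 0.03 and -0.10 in the 3 comparisons, and those of 21 RNA processing genes -0.06, 0.00 and -0.02. The 16 nuclear regulators had medians of -0.05, 0.15 and -0.16. Beside them, the medians of the mitochondrial set itself were -0.55, -1.01 and 1.04 in the same comparisons.

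Of the other lists, 50 assembly factors had medians of -0.01, -0.12 and 0.20, 23 electron carriers and further subunits 0.15, 0.07 and -0.10, and 18 citric acid cycle genes 0.12, 0.08 and 0.05. The 78 mitochondrial ribosomal proteins had -0.03, -0.06 and 0.17, with 62 above 0 in the graft, and 13 stress response genes had 0.01, -0.39 and 0.26. In the mouse host, Tk2, the mitochondrial thymidine kinase, had 74.4 against 31.1 CPM in the controls (log2 fold change 1.29, SE 0.23, edgeR, BH-adjusted p = 0.892). Idh2, the mitochondrial NADP-dependent isocitrate dehydrogenase, had 479 CPM in the rat host and 252 in the mouse host (log2 fold change 0.98, adjusted p = 0.0788), and Dlst, a subunit of the oxoglutarate dehydrogenase complex, had a log2 fold change of 0.88 (adjusted p = 0.128). The complex I assembly factor Ndufaf8 had -0.99 in the rat host (adjusted p = 0.173). In the graft, Cycs, which encodes cytochrome c, had 240 against 135 CPM (0.85, adjusted p = 0.187), Cox20, an assembly factor for the mt-Co2 protein, 1.04 (adjusted p = 0.204), and Taco1, a translational activator of mt-Co1, -2.50 at 2.81 against 18.0 CPM (adjusted p = 0.124).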

How the data were processed

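RNA of 32 libraries was quantified by the authors with Salmon on GRCm39, per the submitters' processing notes, into 1 table per library. For Salmon's version and annotation, the sources used here give nothing. The deposited values were estimated counts per transcript, made by the authors with Salmon per the file headers, and TPM, which the authors' Salmon run scaled for effective length. Of 116747 transcripts, 115685 matched GENCODE M21 (GRCm38) by identifier, and the others held 0.493% of reads. Counts were summed per gene, then per experiment, and rounded.

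The main test was edgeR 4.0.16 (quasi-likelihood, TMM, default filterByExpr with a minimum count of 10 and total of 15) on 8 experiment sums in 4 arms, with 4 residual degrees of freedom; single libraries were used for the tests within the control and mouse-host arms. P-values were BH-adjusted over all tested genes. CPM were TMM-scaled. DESeq2 1.42.0, limma 3.58.1 (R 4.3.3), other filters, scalings and left-out libraries served as alternatives; the edgeR, DESeq2 and limma-trend fits were tested on simulated data. Python 3.11.15, pandas 2.3.3 and numpy 2.4.6 computed sums and sequence matches. Within experiments no library pair agreed within sampling noise (lowest chi-square per degree of freedom 41.0 over 48 pairs).

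Members, lists and tests were chosen with earlier results of these data known. Named nuclear genes were, per comparison, up to 6 with the smallest unadjusted p at 5 CPM or more, plus the highest and lowest TPM of each complex, the subunits with tissue forms and, from each other list, genes called or the 2 with the smallest p. Values of mt-Nd1, mt-Nd5, mt-Co3 and genes without overlap between arms were added after their values were seen. One gene that this rule names is not reported here.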

Additional observations from a re-analysis of the deposited data

Results flagged for a closer look

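In 23 of 280 groups of 4 libraries, examined over 35 measures, the highest or lowest library stood apart from the other 3 by more than Dixon's 95% critical value for the gap to the nearest other library as a share of the group's range. Chance flags about 1 in 20 such groups, and the measures are not independent of each other. Replicate 1 of mouse-host experiment 4 accounted for 8 of them and replicate 1 of mouse-host experiment 1 for 7.

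In replicate 1 of mouse-host experiment 1 the mitochondrial sum was 27190 CPM (other libraries 13870 to 14430) and the ratio of mitochondrial to nuclear reads 1.12 (0.544 to 0.573). The same library had 5931 CPM for mt-Co1 (3327 to 3519), 4870 for mt-Cytb (2069 to 2277), 43.6 for mt-Nd3 (5.96 to 9.11), 99.9 for mt-Nd6 (7.32 to 14.9) and 3344 for mt-Atp6 (448 to 785). Without it the median mitochondrial log2 fold change was -0.65 in the mouse host against control and -0.88 in the rat host against the mouse host, in place of -0.55 and -1.01, and 11 mitochondrial genes in place of 2 passed edgeR's test among the mouse-host experiments.

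In replicate 1 of mouse-host experiment 4 the CPM was 9044 for mt-Co1 (5651 to 6216), 133 for Atp5g2 (80.7 to 89.2), 618 for Ndufb9 (382 to 419), 312 for Uqcrh (170 to 192), 519 for Ndufa4 (281 to 310), 279 for Uqcrb (158 to 168), 702 for Atp5j (393 to 423) and 318 for Ndufs8 (219 to 234).

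In replicate 2 of mouse-host experiment 1 Cox6a2 had 58.1 CPM (35.3 to 38.1) and Uqcrh 220.0 CPM (187 to 190), and in replicate 1 of mouse-host experiment 3 Uqcrc1 had 858 CPM (632 to 653). In replicate 1 of control experiment 1 mt-Nd6 had 132 CPM (65.0 to 70.2). In the rat host, replicate 3 had 12.3 CPM for mt-Nd3 (5.47 to 6.13) and 35.3 for Atp5k (42.6 to 43.3), and replicate 4 had 288 for Sdhb (312 to 314) and 322 for Ndufb8 (287 to 291).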

How the results depend on the processing

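Of 2030 alternative values for named genes, 1916 kept their direction and side of the threshold, 73 passed it newly, 21 no longer did and 20 changed sign. Respiratory chain genes called at an adjusted p of 0.05 numbered 0 in edgeR on experiment sums. In the mouse host against control there were 4 with limma voom, beside 42 of all 13135 genes tested. In the rat host there were 4 with DESeq2, beside 870 of all 15698 genes tested. There were 11 with single libraries taken as independent (beside 776 of 13135) and 8 with voom (beside 1043 of 13135). On log2(TPM + 1) and on log2(TPM + 0.1) there were 2 (beside 592 and 524 of 15698). In the graft there were 6 with DESeq2 (beside 1001 of 15698), 20 with single libraries (477 of 13135) and 23 with voom (316 of 13135). Between the controls there were 2 with DESeq2. Among the mouse-host experiments there were 2 in the main test, beside 165 of all 12195 genes tested. With RLE size factors there were also 2, of which Atp5o took the place of mt-Co3. There were 10 with DESeq2, 4 with a minimum of 10 CPM and 9 with limma-trend on TPM. With pseudogene reads added to the mitochondrial genes, an alternative chosen after seeing the data, there was 1. For these alternatives among the mouse-host experiments the totals over all genes are not given here, so the counts have no background beside them. Genes of the other lists called numbered 3 with DESeq2 and 2 with voom in the mouse host, 7, 1 (10 CPM), 8 (single libraries), 8 (voom), 5 and 5 (TPM) in the rat host, and 11, 10, 10, 4 and 4 by DESeq2, single libraries, voom and TPM in the graft (main value 1). The totals over all genes given above for the members apply to these lists as well. Further totals were 135 of 15698 (DESeq2, mouse host), 218 of 8386 (10 CPM, rat host) and 259 and 292 of 15698 (TPM, graft). The cause of the differences between settings was not tested.

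Replicate numbers did not pair the libraries: deviations of same-numbered libraries had a mean correlation of -0.0058 (-0.12 to 0.08 over 112 pairs), against 0.0019 for differently numbered ones. With the replicate number as a block, members called were 11 in the rat host, 17 in the graft, 1 among the mouse-host experiments and 0 elsewhere. Genes of the other lists called were 8 in the rat host and 10 in the graft. Of all 13135 genes tested, 820 were called in the rat host and 420 in the graft. The total for the mouse-host experiments with this block is not given here.

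On log2(TPM + 1) and log2(TPM + 0.1) the nuclear median was 0.24 and 0.24 in the rat host (main -0.11) and 0.11 and 0.11 in the graft (main 0.29). By sums, in TPM the log2 difference of the rat host was -0.30 for the mitochondrial sum (main -0.69) and 0.26 for the nuclear sum (main -0.07; 0.17 without TMM), and the nuclear difference of the graft 0.12 (main 0.21). The log2 fold change of mt-Co1 in the mouse host against control turned positive with single libraries (0.0056), voom (0.0237) and TPM (0.0483 and 0.0483), and in the graft negative on both TPM scales (-0.0333 and -0.0333).

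Leaving out 1 library at a time, members called stayed at 0 in the 3 comparisons between arms and between the controls. Among the mouse-host experiments they ranged from 0 to 11, beside 78 to 202 of all tested genes. Genes of the other lists ranged from 0 to 1 in the rat host and from 1 to 2 in the graft. Leaving out 1 experiment gave 0 to 1 in both. The log2 fold change of mt-Co1 in the mouse host against control ranged from -0.06 to 0.03 by library and from -0.16 to 0.16 by experiment. The nuclear median in the mouse host ranged from -0.17 to 0.0144 by experiment, above 0 only without control experiment 1.

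With 10 to 20 cells per library and 1 experiment in the rat-host and graft arms, these differences have no replicate experiment in those arms, whose spread is borrowed from the other 2 arms.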

Other observations

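Further genes of the 8 lists that had the 2 smallest unadjusted p values in a comparison are given here as log2 fold changes, none of them called by edgeR. In the mouse host against control these were -0.48 for Mterf3, -0.74 for Cox20, 0.69 for Tmem186, 0.35 for Idh2, -0.56 for Usmg5, 0.66 for Coq8a, 0.69 for Mrpl45, 0.52 for Mrps6, 0.47 for Pde12, 0.23 for Hsd17b10, -0.28 for Hif1a, 0.46 for Esrra and -0.65 for Hspe1, the mitochondrial co-chaperonin. Trib3 was listed at 0 in the controls and at 0.355 CPM in the mouse host.

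In the rat host against the mouse host the values were 0.95 for Cox15, 0.58 and 0.57 for Coq4 and Coq7, which act in ubiquinone synthesis, -0.55 for Mrps18a, -0.76 for Mrpl11, -0.72 for Rexo2, 0.53 for Pnpt1, -0.77 for Asns, 0.98 for Tfb1m, -0.48 for Top1mt, 1.24 for Gabpb1, a partner of GABPA, and 0.66 for Esrrg. Gdf15 was listed at 0 in the rat host and at 0.592 CPM in the mouse host.

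In the graft they were -0.70 for Ogdh and 0.53 for Idh3g in the citric acid cycle, 0.56 for Etfa, 0.70 for Mrps17, -0.82 for Mrps30, -1.44 for Ddit3, 1.06 for Atf4, 0.88 for Mterf3 and -0.46 for Nfe2l2. Perm1 was listed at 0 in the graft and at 0.721 CPM in the mouse host. Tk2 had 38.3 CPM in the graft and 74.4 in the mouse host.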
